A study of Mus musculus with 4 samples.

Results

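Class II molecules of the major histocompatibility complex (MHC) present peptides from the endosome to CD4+ T cells. The 10 genes described here cover the route: the classical chains H2-Aa, H2-Ab1 and H2-Eb1, the invariant chain Cd74, the peptide-loading chains H2-DMa, H2-DMb1 and H2-DMb2, the loading modulators H2-Oa and H2-Ob, and the transactivator Ciita. They were chosen by name, and all 10 of 10 were found among the 57010 genes of the count matrix. They were read in 16356 cells kept of the 16579 barcodes with at least 500 detected genes.

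The lungs of 8-week-old C57Bl6/J mice were profiled by SPLiT-seq, in which fixed cells take on a combination of well barcodes over rounds of pooling and splitting. The Cre_Pos suspension pooled 6 mice with Shh-Cre and a Trp73 allele floxed over exons 7 to 9, and the Cre_Neg suspension pooled 6 littermates that were homozygous for that allele and had no Cre. The labels do not state whether Cre_Pos mice carried 1 or 2 floxed copies, nor how many males and females entered a pool. Trp73 encodes p73, a p53 family transcription factor needed for multiciliated cells, and Shh-Cre acts in the embryonic endoderm from which the lung epithelium derives. Beads removed CD45+ leukocytes from both suspensions and enriched EpCAM+ epithelium ahead of barcoding, so leukocyte and epithelial numbers are set in part by that step. Each genotype is 1 pool, and the 4 sublibraries are technical aliquots of the mixed cells, not animals. No test between genotypes is therefore possible, and every interval below is a 95% interval for counting error alone.

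Dendritic cells, B cells and macrophages are the professional carriers of class II, and in them Ciita, which binds no DNA itself, joins an enhanceosome on X and Y box elements upstream of these genes. In the mouse lung, alveolar type II (AT2) cells carry class II at steady state, and other cells take it up under interferon gamma, which induces Ciita. Cd74 blocks the groove until proteases cut it down, H2-DM exchanges the remaining fragment for peptide, and H2-O restrains H2-DM, chiefly in B cells.

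Upstream windows of 6 of the genes are shown because all 6 hold the same Y box letters, GATTGG. RefSeq promoters (build GRCm38.p6, 250 bases before to 50 after each start) were matched for 7 of the 10 genes, all on chromosome 17, and gave 8 windows because H2-DMa has 2 starts. The Y box letters GATTGG and, upstream of them, the X box letters GNAAC are in capitals in these 64-base stretches, read 5′ to 3′ on the gene's strand.
H2-Aa (chr17:34287854-34287917, minus strand): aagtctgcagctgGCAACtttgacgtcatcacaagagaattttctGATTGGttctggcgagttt
H2-Eb1 (chr17:34305762-34305825, plus strand): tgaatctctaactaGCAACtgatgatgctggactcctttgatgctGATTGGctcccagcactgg
H2-DMb1 (chr17:34153084-34153147, plus strand): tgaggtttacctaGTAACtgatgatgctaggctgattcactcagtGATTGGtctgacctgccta
H2-DMb2 (chr17:34145113-34145176, plus strand): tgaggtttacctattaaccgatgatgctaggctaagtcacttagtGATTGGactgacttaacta
H2-Oa (chr17:34092290-34092353, plus strand): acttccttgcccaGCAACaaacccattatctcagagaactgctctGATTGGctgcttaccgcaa
H2-Ob (chr17:34238802-34238865, plus strand): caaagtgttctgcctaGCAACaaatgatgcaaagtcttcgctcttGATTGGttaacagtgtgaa
GNAAC stood 24 to 27 bases before GATTGG in 5 of the 8 windows. The H2-DMb2 window has the Y box letters without GNAAC at that spacing, and of the H2-DMa starts, neither of which is shown, 1 has GATTGG and neither has the pair. In all, 7 of the 8 windows have GATTGG. On both strands, GATTGG is in 16.1% of the 32851 RefSeq promoters of the same length, and GNAAC followed by GATTGG after 20 to 30 bases is in 0.651%. The motifs and their spacing were chosen with these promoters in view, and a match is a description of letters, not of binding. H2-Oa and H2-Ob, whose windows hold the pair like H2-Aa, differ from H2-Aa in their levels by cell type, which are given below.

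Cells were clustered without the 10 genes among the variable genes, and clusters were named by markers, so every name below stands for cells like that type. The 10 AT2 markers summed to 33312 CPM (UMIs per 1000000 UMIs of the cells in question, a UMI being 1 counted molecule) in AT2-like cells and to 225, 236 and 369 CPM in endothelial-like, ciliated-like and immune-like cells. All 10 ciliated markers, all 10 general capillary markers and all 10 leukocyte marks passed 10 CPM in their own class. That level was also passed outside it. In immune-like cells all 10 AT2 markers and 8 of the 10 general capillary markers passed it. In endothelial-like and in ciliated-like cells 6 of the 10 AT2 markers did. AT2-like cells numbered 1477 in Cre_Pos and 2076 in Cre_Neg, and blood endothelial-like cells 5406 in Cre_Pos and 2606 in Cre_Neg. Ciliated-like cells numbered 120 in Cre_Pos and 1201 in Cre_Neg, and immune-like cells 588 in Cre_Pos and 876 in Cre_Neg. Median depth per kept cell was 7084 to 10368 UMIs over the Cre_Pos aliquots and 7484 to 10201 UMIs over the Cre_Neg aliquots. Trp73 was at 312 CPM in Cre_Pos and 334 CPM in Cre_Neg ciliated-like cells, but its count covers the whole gene and so does not check the deletion. Shh, whose regulatory sequence drives Cre, had 0 UMIs in endothelial-like and immune-like cells of both pools.

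Across cell types with both pools together, the summed level of the 10 genes spanned 0 to 10367 CPM. Dendritic-like cells were highest at 10367 CPM (10079 to 10661; 49 cells). Interstitial macrophage-like cells had 6259 CPM (6040 to 6483; 43 cells) and B-like cells 5738 CPM (5644 to 5834; 404 cells), and the dendritic and macrophage intervals do not meet. These 3 are the types known for class II presentation. Plasmacytoid dendritic-like cells followed at 3496 CPM (3252 to 3754; 23 cells), and AT2-like cells were next at 1297 CPM (1287 to 1307; 3553 cells). The plasmacytoid dendritic-like cluster also passed 8 of the 10 AT2 markers by the naming rule, with Sftpb among its leading genes. The part of AT2 RNA in its level was not tested. The AT2-like level was above the 604 CPM (570 to 640) of monocyte-like and the 603 CPM (545 to 665) of plasma-like cells, which do not differ beyond counting error. Alveolar macrophage-like cells had 385 CPM (361 to 409) and general capillary-like cells 296 CPM (290 to 301). Secretory-like cells had 178 CPM (162 to 195), ciliated-like cells 66.3 CPM (62.9 to 69.7) and aerocytes, the other alveolar capillary type, 32.1 CPM (29.5 to 34.9). T-like cells had 46.1 CPM (34.7 to 60.0), natural killer-like cells had 3 UMIs and neutrophil-like cells had 0 UMIs in 61 cells. UMI counts were not divided by transcript length, so levels are compared between cell types for 1 gene, not between genes.

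**Figure D1:**
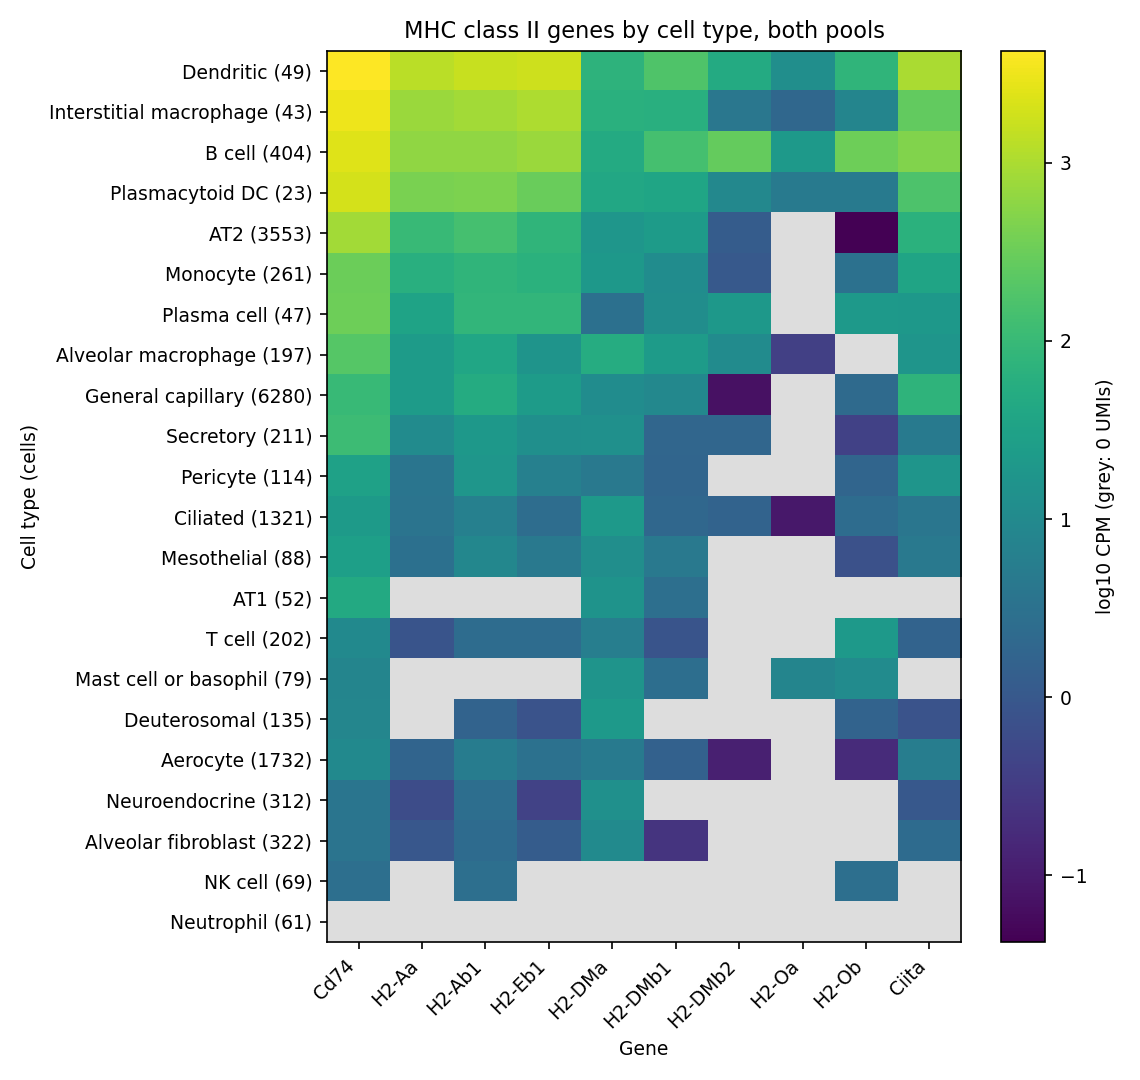
Heat map of the level of each of the 10 genes (columns) in each named cell type (rows, with the number of cells), both pools together, as log10 CPM with grey for 0 UMIs. Dendritic-like, interstitial macrophage-like and B-like cells lead in the classical chains and Cd74, while H2-Oa is grey in AT2-like, capillary-like and secretory-like cells.

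The 10 genes did not share 1 pattern over the types. Cd74, the invariant chain, was at 4259 CPM in dendritic-like, 2434 CPM in B-like, 866 CPM in AT2-like and 101 CPM in general capillary-like cells. H2-Ab1, the classical beta chain, was at 1653 CPM in dendritic-like, 616 CPM in B-like, 143 CPM in AT2-like and 50.6 CPM in general capillary-like cells. AT2-like cells thus held the classical and invariant chains below the professional types and above capillary cells.
The loading modulators lay mainly in B-like cells. H2-Ob, the beta chain of H2-O, was at 341 CPM in B-like, 80.1 CPM in dendritic-like and 21.8 CPM in T-like cells, against 0.0423 CPM in AT2-like cells, where both pools gave 1 UMI each. H2-Oa, its alpha chain, was at 20.5 CPM in B-like and 12.6 CPM in dendritic-like cells and had 0 UMIs in AT2-like and endothelial-like cells of both pools. A count of 0 in AT2-like cells allows a share of cells with a UMI of up to 0.203% in Cre_Pos and 0.145% in Cre_Neg, which limits cells with a UMI, not cells that express the gene.
H2-DMb2, a second beta chain of H2-DM, was at 284 CPM in B-like cells, 48.5 CPM in dendritic-like cells and 1.21 CPM in AT2-like cells. H2-DMb1, the beta chain next to it on the chromosome, was at 144 CPM in B-like, 177 CPM in dendritic-like and 23.4 CPM in AT2-like cells. H2-DMb1 and H2-DMb2 are close copies, and reads that match both may have been divided between them. H2-DMa, the alpha chain that pairs with both, was also present outside these types. It was at 73.8 CPM in dendritic-like, 18.4 CPM in AT2-like, 20.8 CPM in ciliated-like and 20.6 CPM in deuterosomal-like cells.

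Ciita, the transactivator, ordered AT2-like and capillary cells differently from Cd74. It was at 66.5 CPM in AT2-like cells and at 74.3 CPM in general capillary-like cells, although Cd74 and the classical chains were lower in the capillary cells. Per 100 Cd74 UMIs, AT2-like cells held 7.79 Ciita UMIs in Cre_Pos and 7.57 in Cre_Neg. In endothelial-like cells there were 92.1 in Cre_Pos and 55.5 in Cre_Neg, and in B-like cells 18.6 in Cre_Pos and 20.9 in Cre_Neg. Barcodes of at most 50 UMIs, taken as free RNA, gave 22.7 in Cre_Pos and 20.6 in Cre_Neg.

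Over the 18 types with at least 50 cells, the level of Cd74 followed the sum of the other 9 genes most closely (Pearson r = 0.95 on log2(CPM + 10)), then H2-Ab1 at 0.95 and H2-Aa at 0.94. H2-Oa at 0.51 and H2-Ob at 0.53 followed it least. Of 13149 other genes, the 10 most like the summed level were Yeats4 (r = 0.79), Ifi30 (0.77), Snx29 (0.77), Rps19, Pgap1, Tk1, Cyp2r1, Cd180, Nubp1 and Cd83 (0.72). Ifi30 encodes the lysosomal thiol reductase that unfolds antigens, and Cd83 encodes a surface protein that slows class II turnover. Types share libraries and differ in depth, so these r values describe 18 points and carry no p.

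In AT2-like cells the summed level differed between pools by 0.03 on the log2 scale. The 10 genes together were at 1327, 1222, 1292 and 1304 CPM in the 4 Cre_Pos aliquots, against 1280, 1343, 1293 and 1319 CPM in the Cre_Neg aliquots, and the ranges overlap. The pooled levels were 1281 CPM in Cre_Pos and 1311 CPM in Cre_Neg, a log2 ratio of Cre_Pos over Cre_Neg of -0.03 (-0.06 to -0.01). The interval excludes 0, but the ratio was 0.01 without sublibrary 2. Cd74 was at 883, 832, 865 and 900 CPM in Cre_Pos and at 846, 875, 861 and 876 CPM in Cre_Neg aliquots, a log2 ratio of 0.00 (-0.03 to 0.03). Ciita was at 67.6 CPM in Cre_Pos and 65.5 CPM in Cre_Neg, with a log2 ratio of 0.05 (-0.06 to 0.15).
Over all AT2-like cells, the classical chains sat slightly lower in Cre_Pos, and their levels by sex stratum are given below. H2-Aa, the alpha chain, was at 92.1, 92.4, 95.3 and 91.1 CPM in Cre_Pos aliquots, against 100.4, 113, 100.3 and 109.9 CPM in Cre_Neg aliquots, a log2 ratio of -0.20 (-0.28 to -0.11). Of the 8 genes measured in AT2-like cells it was the sole one whose 4 Cre_Pos aliquots all lay below the 4 Cre_Neg aliquots, a pattern that 4.18% of 15236 genes showed. H2-Eb1 had a log2 ratio of -0.16 (-0.25 to -0.07), H2-Ab1 one of -0.08 (-0.15 to -0.01), H2-DMa one of -0.17 (-0.37 to 0.03) and H2-DMb1 one of -0.07 (-0.24 to 0.11). Of the 8 measured genes 0 were at least 2-fold lower in Cre_Pos, against 1.76% of all genes, and 0 were at least 2-fold higher, against 1.31%. Their median log2 ratio was -0.07, beside 0.02 over all genes.

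Per cell, the AT2-like distribution also lay close in the pools. The median cell had 11.4 UMIs of the 10 genes per 10000 UMIs in Cre_Pos and 11.5 in Cre_Neg, with quartiles of 6.93 and 17.1 in Cre_Pos and 6.84 and 17.2 in Cre_Neg. The share of AT2-like cells with a UMI of any of the 10 genes was 96.1% in Cre_Pos and 95.9% in Cre_Neg. Cre_Pos cells were deeper, with a median of 14249 UMIs in Cre_Pos and 11445 in Cre_Neg, and thinned to 2000 UMIs per cell the shares were 83.0% (81.0 to 84.9) in Cre_Pos and 85.1% (83.4 to 86.6) in Cre_Neg. AT2-like cells with a Ciita UMI had 1519 CPM of the 10 genes in Cre_Pos and 1578 CPM in Cre_Neg, Ciita itself included. Those without one had 1021 CPM in Cre_Pos and 1066 CPM in Cre_Neg, so AT2-like cells without a detected Ciita UMI still held the other chains.
The 3 large AT2-like clusters differed more from each other than between pools. Cluster 1 was at 1489 CPM in Cre_Pos and 1585 CPM in Cre_Neg, and cluster 3 at 1269 CPM in Cre_Pos and 1261 CPM in Cre_Neg. Cluster 2, led by Ndnf, was at 836 CPM in Cre_Pos and 857 CPM in Cre_Neg, the lowest of the 3 large clusters in both pools. It passed 9 of 10 AT2 markers and also 9 of 10 markers of Krt8 transitional alveolar cells, so the markers do not settle its name. At the finer clustering, a cluster that shares the leading genes Ndnf, Ano1, Itgb6 and Cldn18 was named Krt8 transitional. Cluster 4, led by the club cell gene Scgb1a1 and left unnamed, was at 283 CPM (268 to 300) in Cre_Pos and 190 CPM (173 to 208) in Cre_Neg.

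**Figure D2:**
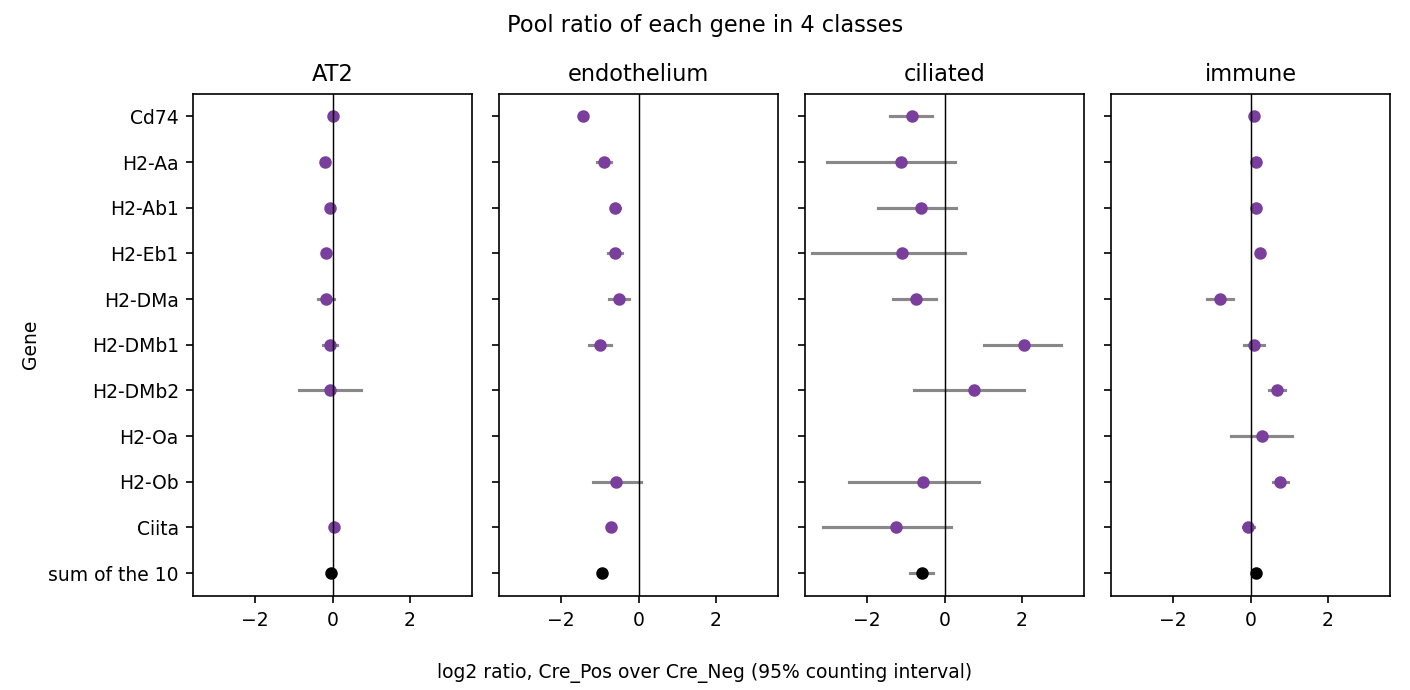
Log2 ratio of Cre_Pos over Cre_Neg (horizontal axis) for each gene and for the sum (black) in 4 classes, with 95% counting intervals as lines; genes under 20 UMIs over both pools are left out. All 8 measured genes lie below 0 in endothelial-like cells, while in AT2-like cells the sum is at -0.03.

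In endothelial-like cells the 10 genes were lower in Cre_Pos as a group. The summed level was at 168, 170, 173 and 186 CPM in Cre_Pos aliquots, against 307, 331, 341 and 366 CPM in Cre_Neg aliquots, and the ranges do not overlap. Pooled, it was 174 CPM (170 to 178) in Cre_Pos and 337 CPM (328 to 345) in Cre_Neg, a log2 ratio of -0.95 (-1.003 to -0.90). The aliquots' own log2 ratios were -0.87, -0.96, -0.98 and -0.98. All 8 genes measured had a ratio below 0, with a median of -0.67, beside -0.01 over the 15299 genes measured in this class, of which 51.3% lay below 0.
Of the 8, Cd74 was furthest below 0. It was at 46.8, 48.5, 50.9 and 54.9 CPM in Cre_Pos aliquots, against 114, 140, 138 and 152 CPM in Cre_Neg aliquots, with a log2 ratio of -1.45 (-1.53 to -1.36). It was 1 of the 1.55% of genes at least 2-fold lower in Cre_Pos and the only one of the 8, while 1.98% of all genes and 0 of the 8 were at least 2-fold higher. Only 0.373% of genes had a ratio as low as that of Cd74.
H2-DMb1 was at 4.89, 6.33, 5.34 and 4.97 CPM in Cre_Pos aliquots, against 10.7, 11.9, 10.9 and 9.73 CPM in Cre_Neg aliquots, with a log2 ratio of -0.997 (-1.28 to -0.71), just short of 2-fold. H2-Aa was at 13.2, 12.5, 14.8 and 15.1 CPM in Cre_Pos aliquots, against 26.9, 23.1, 22.9 and 29.9 CPM in Cre_Neg aliquots, with a log2 ratio of -0.88 (-1.06 to -0.70). For both, each Cre_Pos aliquot lay below each Cre_Neg aliquot.
H2-Ab1 was at 32.4, 32.0, 31.9 and 35.4 CPM in Cre_Pos aliquots, against 51.1, 49.4, 48.6 and 50.4 CPM in Cre_Neg aliquots, with a log2 ratio of -0.60 (-0.72 to -0.48). H2-Eb1, the other classical beta chain, was at 14.96, 14.7, 17.1 and 15.8 CPM in Cre_Pos aliquots, against 19.3, 27.7, 24.0 and 23.7 CPM in Cre_Neg aliquots, with a log2 ratio of -0.62 (-0.80 to -0.44). Ciita was at 46.7, 47.3, 41.6 and 48.9 CPM in Cre_Pos aliquots, against 69.6, 68.0, 82.5 and 84.1 CPM in Cre_Neg aliquots, with a log2 ratio of -0.71 (-0.82 to -0.61). The transactivator was thus lower along with the chains, and Cd74 was further below 0 than Ciita.
H2-DMa had overlapping aliquots and a log2 ratio of -0.50 (-0.75 to -0.25), and H2-Ob, with 63 UMIs in Cre_Pos and 37 in Cre_Neg, one of -0.57 (-1.18 to 0.05). H2-DMb2 had 2 UMIs in Cre_Pos and 3 in Cre_Neg, and H2-Oa 0 in both. In all, 6 of the 8 measured genes had every Cre_Pos aliquot below every Cre_Neg aliquot, against 5.54% of all genes. Aliquots of 1 pool share its animals, so this separation describes counting and handling, not variation between mice.

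**Figure D3:**
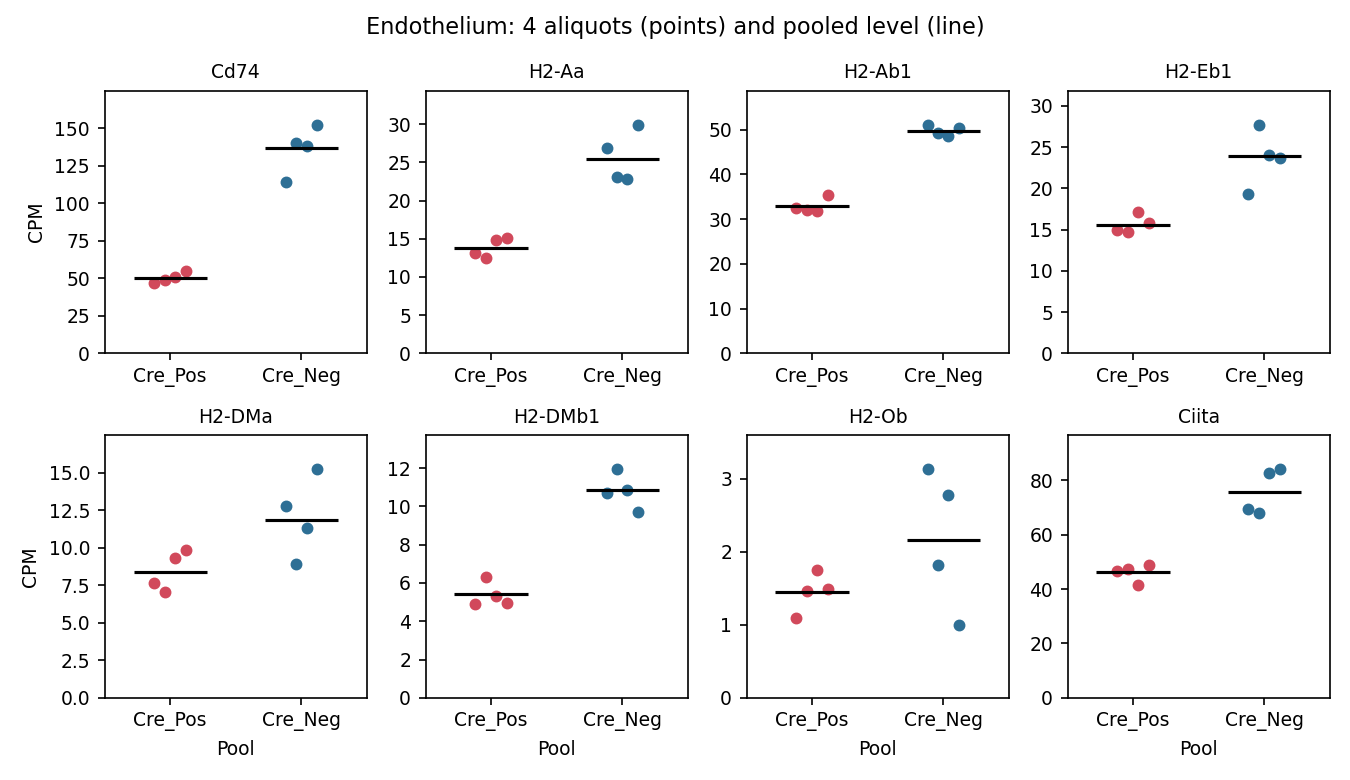
Level in CPM of 8 genes in endothelial-like cells of the 4 Cre_Pos and 4 Cre_Neg aliquots (points), with the pooled level as a line; each axis starts at 0. The Cre_Pos points lie below the Cre_Neg points for Cd74, H2-Aa, H2-Ab1, H2-Eb1, H2-DMb1 and Ciita, and overlap for H2-DMa and H2-Ob.

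Endothelial subtypes carried the genes unequally, and the summed ratio between pools was below 0 in both. General capillary-like cells, the capillary type with proliferative capacity, were at 233 CPM (227 to 238) in Cre_Pos and 455 CPM (443 to 467) in Cre_Neg, a log2 ratio of -0.97 (-1.02 to -0.92). Aerocyte-like cells, the thin type apposed to the gas-exchange surface, were at 27.4 CPM (24.6 to 30.5) in Cre_Pos and 44.0 CPM (38.3 to 50.2) in Cre_Neg, with a log2 ratio of -0.68 (-0.93 to -0.43). Each of the 4 large general capillary-like clusters was lower in Cre_Pos, with log2 ratios of -1.04, -1.03, -1.001 and -0.77, in 4 of 4 aliquots each. The general capillary-like cluster 19 went the other way at 0.57, on 45 UMIs in Cre_Pos and 8 in Cre_Neg, with an interval of -0.53 to 1.87. Of the aerocyte-like clusters, 6 was at -1.01 (-1.29 to -0.72) and 7 at -0.51 (-1.02 to 0.02). Cluster 6 (294 cells in Cre_Pos and 129 in Cre_Neg) also passed 8 of the 10 general capillary markers by the naming rule. The part of general capillary RNA in its level was not tested. The interval of the larger cluster 7 (877 cells in Cre_Pos and 432 in Cre_Neg) includes 0. The unnamed cluster 16, led by vein and lymphatic genes, was at 149 CPM in Cre_Pos and 229 CPM in Cre_Neg, with a log2 ratio of -0.61.
At full depth a UMI of any of the 10 genes was seen in 41.5% of Cre_Pos and 54.1% of Cre_Neg endothelial-like cells. After thinning to 2000 UMIs the shares were 22.04% (20.9 to 23.2) in Cre_Pos and 36.1% (34.2 to 38.1) in Cre_Neg. For Cd74 alone the thinned shares were 7.56% (6.86 to 8.31) in Cre_Pos and 18.5% (17.0 to 20.1) in Cre_Neg. Aerocyte-like cells, in which class II is near its lowest, gave a thinned share of 3.91% for any of the 10 genes.

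Markers of other cells were read in the same endothelial-like libraries. The 10 leukocyte marks summed to 167 CPM (aliquots 156 to 173) in Cre_Pos and 159 CPM (157 to 162) in Cre_Neg, nearly all of it Lcp1, and 0 of the 10 in Cre_Pos and 1 of the 10 in Cre_Neg had no UMI. A Ptprc (CD45) UMI was in 0.869% of Cre_Pos and 1.04% of Cre_Neg cells, and without those cells the summed log2 ratio was -0.96. The 10 B cell markers summed to 133 CPM in Cre_Pos and 93.1 CPM in Cre_Neg, of which Ebf1, also an endothelial and stromal transcript, gave 5656 UMIs of 5753 in Cre_Pos and 1521 of 1593 in Cre_Neg. Sftpc, the AT2 surfactant gene, was at 20.1 CPM in Cre_Pos and 25.7 CPM in Cre_Neg endothelial-like cells, against 1416 CPM in Cre_Pos and 1533 CPM in Cre_Neg free RNA. If all of that Sftpc were free RNA, the 10 genes carried with it would come to 5.68 CPM in Cre_Pos and 7.41 CPM in Cre_Neg, beside the measured 174 CPM in Cre_Pos and 337 CPM in Cre_Neg.

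**Figure D4:**
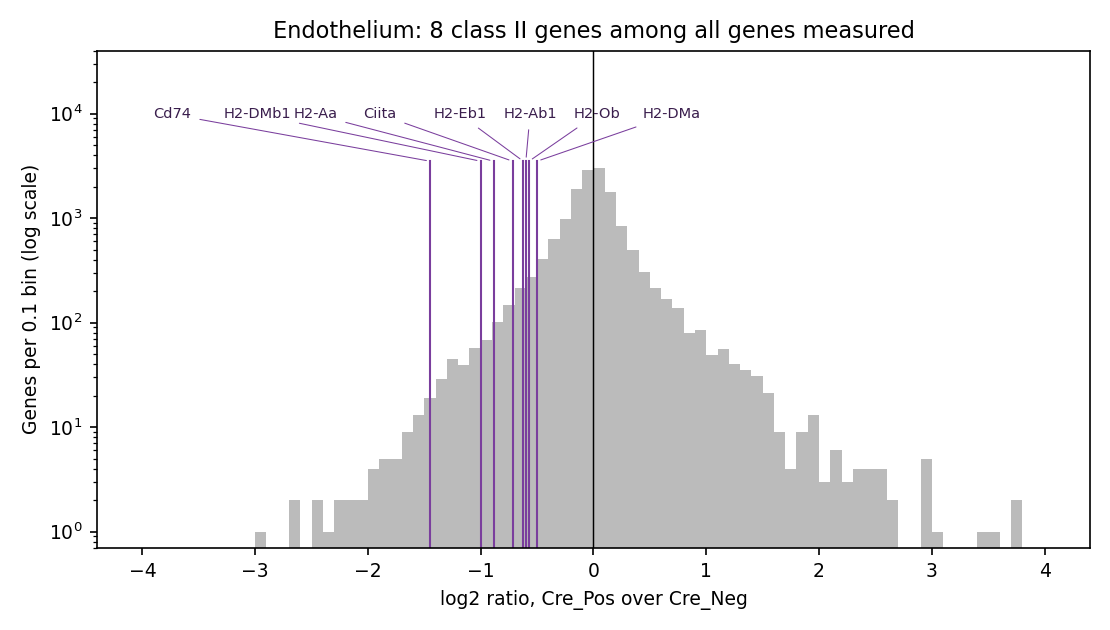
Number of genes per bin of 0.1 in log2 ratio of Cre_Pos over Cre_Neg in endothelial-like cells (vertical log axis), with 8 class II genes marked by lines. Cd74 at -1.45 lies in the sparse left tail, and the other genes lie between -0.997 and -0.50.

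Sex-linked transcripts separate cells of males and females within each pool, and the class II level differed between them in Cre_Neg. Cells that hold a Y-linked UMI but lack Xist, the X-silencing RNA of females, are called Y-only, and the reverse Xist-only. Y-only cells were 2.70% of Cre_Pos and 12.7% of Cre_Neg endothelial-like cells. Within Cre_Neg, Y-only endothelial-like cells had 700 CPM of the 10 genes (331 cells) and Xist-only cells 256 CPM (1827 cells), a log2 ratio of Y-only over Xist-only of 1.45 (1.37 to 1.54). Within Cre_Pos, Y-only cells had 218 CPM (146 cells) and Xist-only cells 168 CPM (4664 cells), a log2 ratio of 0.37 (0.19 to 0.55). The leukocyte marks were at 196 CPM in Y-only and 149 CPM in Xist-only cells of Cre_Neg. Lcp1 alone was at 189 CPM in these Y-only and 143 CPM in these Xist-only cells. Ptprc was at 1.22 CPM (3 UMIs) in Y-only and 1.67 CPM (21 UMIs) in Xist-only cells of Cre_Neg. The part of the leukocyte marks in the class II difference was not tested. How many mice gave the Y-only cells is not known, so sex and individual mice cannot be told apart.
The pool difference was present in each stratum. In Xist-only endothelial-like cells the sum was at 168 CPM in Cre_Pos and 256 CPM in Cre_Neg, a log2 ratio of -0.60 (-0.66 to -0.54), lower in 4 of 4 aliquots. In Y-only cells it was at 218 CPM in Cre_Pos and 700 CPM in Cre_Neg, a log2 ratio of -1.68 (-1.88 to -1.50), also lower in 4 of 4. Cd74 had log2 ratios of -0.94 (-1.05 to -0.83) in Xist-only and -2.04 (-2.35 to -1.74) in Y-only cells. The summed ratio was thus -0.60 in Xist-only cells alone, beside -0.95 over all endothelial-like cells.

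Ciliated-like cells held little class II, and the Y-only cells of Cre_Neg held the highest level among them. The summed level was at 15.1, 39.7, 75.02 and 48.5 CPM in Cre_Pos aliquots, against 68.0, 82.6, 56.5 and 62.6 CPM in Cre_Neg aliquots, and the ranges overlap. Pooled, it was 45.9 CPM (37.6 to 55.5) in Cre_Pos and 68.6 CPM (65.0 to 72.4) in Cre_Neg, a log2 ratio of -0.58 (-0.88 to -0.30) on 106 UMIs in Cre_Pos. Leaving out sublibrary 1 gave -0.24 and leaving out sublibrary 3 gave -1.22. Without the doublet and mitochondrial filters the ratio was -0.06.
Of the 9 genes measured, Ciita (4 UMIs in Cre_Pos), H2-Aa (4) and H2-Eb1 (3) were at least 2-fold lower in Cre_Pos, where 4.66% of 14429 genes were. Each of their intervals includes 0. H2-DMb1 was at least 2-fold higher, where 3.1% of genes were, with 14 UMIs in Cre_Pos and 29 in Cre_Neg and a log2 ratio of 2.04 (1.01 to 3.01). Of those 14 UMIs, sublibrary 3 gave a level of 12.9 CPM, while the other Cre_Pos aliquots were at 0 to 3.97 CPM. Within Cre_Neg, H2-DMb1 was at 4.38 CPM in Y-only and 0.97 CPM in Xist-only ciliated-like cells. In Y-only cells its log2 ratio between pools was 0.24 (-1.09 to 1.52), on 10 UMIs in Cre_Pos and 14 in Cre_Neg. H2-DMa was at 12.98 CPM in Cre_Pos and 21.7 CPM in Cre_Neg and Cd74 at 13.4 CPM in Cre_Pos and 24.0 CPM in Cre_Neg.
The sex make-up of the ciliated-like cells was opposite in the pools, with 101 Y-only and 3 Xist-only cells in Cre_Pos and 177 Y-only and 883 Xist-only cells in Cre_Neg. Within Cre_Neg, Y-only ciliated-like cells were at 192 CPM of the 10 genes and Xist-only cells at 43.1 CPM, a log2 ratio of 2.15 (1.99 to 2.32). Cd74 was at 96.6 CPM in Y-only and 8.39 CPM in Xist-only cells, a log2 ratio of 3.53 (3.22 to 3.84). H2-Ab1 differed likewise at 3.39 (2.82 to 3.99), H2-Aa at 3.21 (2.44 to 4.012) and Ciita at 2.81 (2.10 to 3.53). The interval of H2-DMa includes 0, at 20.0 CPM in Y-only and 22.3 CPM in Xist-only cells and a log2 ratio of -0.16 (-0.57 to 0.23). The 309 Cd74 UMIs of the Y-only Cre_Neg cells came from 38 of 177 cells (21.5%; 15.7 to 28.3), so most of these cells had none. Leukocyte marks were at 33.5 CPM in Y-only and 31.8 CPM in Xist-only ciliated-like cells of Cre_Neg.
Between pools, Y-only ciliated-like cells were at 44.6 CPM in Cre_Pos and 192 CPM in Cre_Neg, a log2 ratio of -2.10 (-2.45 to -1.78), lower in 4 of 4 aliquots. Cre_Pos Y-only cells were thus near the 43.1 CPM of Cre_Neg Xist-only cells. Xist-only cells allow no comparison between pools, since Cre_Pos had 3.

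**Figure D5:**
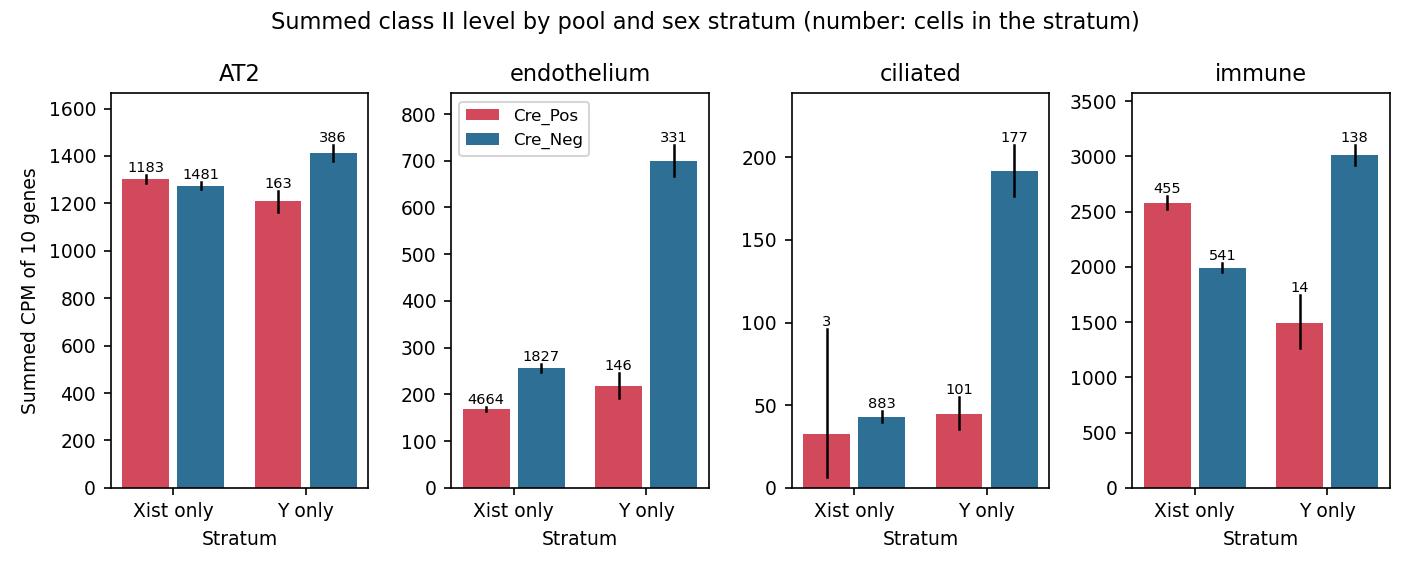
Summed level of the 10 genes in CPM (bars, 95% counting intervals, number of cells above) in Xist-only and Y-only cells of each class, Cre_Pos in red and Cre_Neg in blue. Y-only Cre_Neg endothelial-like cells stand at 700 CPM and ciliated-like cells at 192 CPM, and AT2-like bars lie between 1208 and 1412 CPM.

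AT2-like cells differed less by stratum. The Y-only sum was 1208 CPM in Cre_Pos and 1412 CPM in Cre_Neg, a log2 ratio of -0.23 (-0.29 to -0.16), lower in 4 of 4 aliquots. The Xist-only sum was 1301 CPM in Cre_Pos and 1275 CPM in Cre_Neg, a log2 ratio of 0.03 (0.00 to 0.06). Within Cre_Neg, Y-only AT2-like cells were at 1412 CPM and Xist-only cells at 1275 CPM, a log2 ratio of 0.15 (0.11 to 0.19), and Ciita at 65.9 CPM in Y-only and 65.5 CPM in Xist-only cells. In Xist-only cells H2-Aa was at 95.7 CPM in Cre_Pos and 103.7 CPM in Cre_Neg. There H2-Eb1 was at 76.4 CPM in Cre_Pos and 80.0 CPM in Cre_Neg, and H2-Ab1 at 141.5 and 140.8 CPM. In Y-only cells H2-Aa was at 75.4 CPM in Cre_Pos and 115.3 CPM in Cre_Neg. There H2-Eb1 was at 67.2 CPM in Cre_Pos and 94.8 CPM in Cre_Neg, and H2-Ab1 at 132.3 and 161.5 CPM.

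Immune-like cells as a whole were 0.14 (0.11 to 0.18) higher in Cre_Pos on the log2 scale, with 2379 CPM in Cre_Pos and 2156 CPM in Cre_Neg. The aliquots were at 2541, 1893, 2213 and 3111 CPM in Cre_Pos and at 2285, 2072, 2225 and 2061 CPM in Cre_Neg, and the ranges overlap. Leaving out sublibrary 4 gave 0.01. The make-up of the class differed, with 3 alveolar macrophage-like cells in Cre_Pos and 194 in Cre_Neg, and 4 neutrophil-like cells in Cre_Pos and 57 in Cre_Neg. Without alveolar macrophage-like cells the log2 ratio was -0.37 (-0.41 to -0.33), so the direction of the pooled immune value turned with them.
Of the 10 genes 0 were at least 2-fold lower in Cre_Pos, where 9.03% of 12941 genes were, and 0 at least 2-fold higher, where 7.84% were. H2-Ob was at 141, 114, 89.1 and 96.6 CPM in Cre_Pos aliquots, against 68.6, 64.6, 59.9 and 66.9 CPM in Cre_Neg aliquots, with a log2 ratio of 0.77 (0.59 to 0.96). H2-DMb2 had a log2 ratio of 0.68 (0.47 to 0.88), and both genes were measured mainly in B-like cells, which were 183 of 588 immune-like cells in Cre_Pos and 221 of 876 in Cre_Neg. H2-DMa, which alveolar macrophage-like cells held at 52.3 CPM, had a log2 ratio of -0.78 (-1.13 to -0.45).
Within B-like cells the sum of the 10 genes was 5809 CPM (5664 to 5956) in Cre_Pos and 5685 CPM (5559 to 5812) in Cre_Neg, a log2 ratio of 0.03 (-0.02 to 0.08). H2-Ob at 0.34 (0.14 to 0.54) and H2-DMb2 at 0.36 (0.15 to 0.58) were higher in Cre_Pos in 4 of 4 aliquots, and Ciita was at -0.19 (-0.37 to -0.02). Monocyte-like cells were at 670 CPM in Cre_Pos and 538 CPM in Cre_Neg, a log2 ratio of 0.32 (0.15 to 0.49), higher in 2 of 4 aliquots. Dendritic-like cells, 18 in Cre_Pos and 31 in Cre_Neg, were at 9054 CPM in Cre_Pos and 10985 CPM in Cre_Neg.

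The wider pathway was read from lists of other genes. Over all genes measured in endothelial-like cells, 51.3% had a ratio below 0, 1.55% were at least 2-fold lower in Cre_Pos and 1.98% at least 2-fold higher, and each list is set beside these shares. Of the class I presentation genes 14 of 15 had a ratio below 0, the median was -0.23, and 0 were at least 2-fold lower or higher. Nlrc5, the class I transactivator, was at -0.51 (-0.58 to -0.45) and B2m, the class I light chain, at -0.37 (-0.40 to -0.34). Of 23 interferon gamma response genes 18 were below 0, with a median of -0.20, 2 at least 2-fold lower and 0 higher. Those 2 were the chemokine genes Cxcl9 (11 UMIs in Cre_Pos and 23 in Cre_Neg) and Cxcl10 (13 UMIs in Cre_Pos and 13 in Cre_Neg, with Cre_Pos holding more UMIs in all). Iigp1, an interferon-induced GTPase, was at -0.41 (-0.50 to -0.33), while the signalling genes Jak1 at 0.18 (0.14 to 0.23) and Irf1 at 0.12 (0.05 to 0.20) lay above 0. By stratum, the summed interferon gamma response list was at 1552 CPM in Cre_Pos and 1553 CPM in Cre_Neg Xist-only cells. In Y-only cells it was at 1612 CPM in Cre_Pos and 2055 CPM in Cre_Neg. The part of the sex make-up in the pool ratios of this list was not tested.
Of the class II transcription genes, which encode the enhanceosome and its coactivators, 0 of 10 were at least 2-fold lower or higher, 2 were below 0 and the median was 0.06, with Rfx5 at -0.04. Endosomal processing genes had a median of -0.01 and 1 of 9 at least 2-fold lower. That gene was Ctss, the protease that trims Cd74, at -1.34 with 10 UMIs in each pool. Its interval, -2.76 to 0.08, includes 0. Of 6 turnover genes 3 were below 0, with Marchf1, a ligase that marks class II for degradation, at -0.76 (-1.67 to 0.19; 27 UMIs in Cre_Pos and 18 in Cre_Neg) and Cd83 at 0.76 (-0.25 to 1.92; 43 UMIs in Cre_Pos and 10 in Cre_Neg). Both intervals include 0. The 3 costimulation genes measured were below 0, with Cd40 at -0.26 (-0.42 to -0.10). Icosl at -0.18 (-0.95 to 0.64) and Cd274 at -0.01 (-0.19 to 0.18) have intervals that include 0.
Over all genes measured in AT2-like cells, 46.7% had a ratio below 0, 1.31% were at least 2-fold higher in Cre_Pos and 1.76% at least 2-fold lower. Of 15 class I genes 4 lay below 0 and 11 above, with a median of 0.13, the peptide transporter gene Tap2 at 0.45 and the heavy chain gene H2-K1 at 0.29 highest, and Tapbpl at -0.22 and Nlrc5 at -0.14 lowest. Of 19 interferon gamma response genes 4 were below 0 and 15 above, with a median of 0.17, and 2 were at least 2-fold higher, Gbp4 (45 UMIs in Cre_Pos and 13 in Cre_Neg; 1.98) and Iigp1 (23 UMIs in Cre_Pos and 10 in Cre_Neg; 1.39). Irf8, a leukocyte transcription factor, was at least 2-fold lower at -1.01 on 10 UMIs in Cre_Pos and 23 in Cre_Neg, and Irgm2 was next at -0.21. Ptprc was at -1.48 on 16 UMIs in Cre_Pos and 51 in Cre_Neg, while the leukocyte marks summed to 209 CPM in each pool. Of that sum Lcp1, at 0.01, gave 4568 of 4614 UMIs in Cre_Pos and 5176 of 5267 in Cre_Neg.
The 6 turnover genes all lay above 0 in AT2-like cells. Highest were Marchf1 at 0.78 (-0.47 to 2.09; 15 UMIs in Cre_Pos and 10 in Cre_Neg) and Cd83 at 0.77. Lowest were Marchf8 at 0.03 (-0.08 to 0.13) and Cd63 at 0.11. The intervals of Marchf1 and Marchf8 include 0. Of 8 processing genes 5 were above 0, with Ctsz at 0.27 and Ctsd at 0.22 highest and Ifi30 at -0.20 and Ctsh at -0.19 lowest, and of 10 transcription genes 9 were below 0, including the coactivator gene Ep300 at 0.00, with Rfxap at -0.22 and Rfxank at -0.13 lowest and Rfx5 highest at 0.12. None of the measured genes of the class I, turnover, processing, transcription, other-chain and costimulation lists was at least 2-fold higher or lower in AT2-like cells. Of the other class II chains, H2-Eb2 was at 0.30, and of the costimulation genes Tnfsf9 was at -0.07 and Cd274 at 0.36.
Between the strata of Cre_Neg, the interferon gamma response list was higher in Y-only cells of the endothelial-like and ciliated-like classes. Its summed level was 2055 CPM in Y-only and 1553 CPM in Xist-only endothelial-like cells, a log2 ratio of 0.40 (0.36 to 0.45). In Cre_Neg ciliated-like cells it was 630 CPM in Y-only and 352 CPM in Xist-only cells, a log2 ratio of 0.84 (0.77 to 0.92), and the class I list was at 0.66 (0.61 to 0.71). For the interferon gamma response list in Cre_Neg, the interval included 0 in AT2-like cells, at 412 CPM in Y-only and 397 CPM in Xist-only cells with a log2 ratio of 0.05 (-0.02 to 0.12). It also included 0 in Cre_Neg immune-like cells, at 1778 CPM in Y-only and 1744 CPM in Xist-only cells with a log2 ratio of 0.03 (-0.04 to 0.09), where the sum of the 10 genes was at 0.60 (0.54 to 0.65). The class II transcription list was at 0.06 in endothelial-like and 0.01 in ciliated-like cells between the same strata. The part of these levels in the class II differences was not tested.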

How the data were processed

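SPLiT-seq libraries (Evercode WT v2 kit per the labels) were deposited as a matrix of UMI counts per barcode and gene; alignment to GRCm39 is named in the submitters' processing notes, the deposited gene table names mm10, and no source used here names an aligner. The pool, wells and sublibrary of each of 647296 barcodes came from the deposited cell table, and 7 of its other columns were not used. Its gene number equalled that of the matrix for 647295 barcodes.

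Of 16579 barcodes with at least 500 genes (20000 cells are stated), 16541 had at most 15% mitochondrial UMIs, and of those 185 (1.12%) were called doublets by Scrublet and removed, leaving 16356. Of these, 542 (3.31%) share a well combination with a cell of another sublibrary, and 0 combinations occur in both pools. Scanpy 1.11.5 gave 3000 variable genes, 2993 without 7 class II genes, 30 components, 15 neighbours and 30 Leiden clusters (resolution 1). A cluster took a name from at least 3 markers at 4-fold the median cluster's CPM + 10 and in 10% of its cells. Leukocytes were clustered again, and the check of leading genes that left clusters 4 and 16 unnamed was set, after seeing the data. H2-Oa and similar counts of 0 were read against a floor of 3 counts.

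UMIs were summed per class and pool and divided by the class's UMIs (CPM), with exact Poisson intervals for levels, exact conditional binomial intervals for ratios and Clopper-Pearson intervals for shares. Genes with at least 20 UMIs over both pools counted as measured, and called means 2-fold. On simulated counts in endothelial-like cells 95.8% of intervals for 15299 genes held the true ratio. For the 200 genes given a change, the share was 91.0% in immune-like, 93.0% in AT2-like, 97.0% in endothelial-like and 98.5% in ciliated-like cells. The counts were drawn from the Poisson model that the intervals assume. This checks the arithmetic only, and spread between cells or mice was not simulated. Y-linked genes were Ddx3y, Kdm5d, Eif2s3y and Uty. Named genes are the 10 genes in every class and, of each list, the 2 highest and 2 lowest ratios in AT2-like cells; genes named in other classes were chosen after their values were seen. The genes and lists (class II transcription, class II other chains, endosomal processing, class II turnover, costimulation, class I presentation, interferon gamma response, leukocyte marks) were chosen with earlier results of these data known. Alternatives were other filters, clusterings, denominators, strata and left-out sublibraries; 3 (general capillary-like, aerocyte-like, no alveolar macrophages) were added after seeing the data. In these pools of cells, fewer cells that express a gene and less RNA per cell cannot be told apart from CPM alone.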

Additional observations from a re-analysis of the deposited data

Results flagged for a closer look

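In a group of 4 aliquots, a value set far from the other 3 is found by chance in about 1 of 20 groups. Over 56 such groups (a gene or the sum, in 1 class of 1 pool, with at least 100 UMIs), 2 such values were found. H2-Ab1 in Cre_Pos endothelial-like cells was at 35.4 CPM in sublibrary 4 and at 31.9 to 32.4 CPM in the other 3 sublibraries. Ciita in Cre_Neg immune-like cells was at 146 CPM in sublibrary 4 and at 178 to 184 CPM in the other 3.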

How the results depend on the processing

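The endothelial log2 ratio of the summed level, -0.95, stayed below 0 under every alternative run. It was -0.97 to -0.94 with 1 sublibrary left out, -0.66 as mean UMIs per cell, -0.60 in Xist-only cells, -1.68 in Y-only cells and, added after seeing the data, -0.68 in aerocyte-like clusters. The AT2-like ratio, -0.03, took either sign: -0.0577 to 0.0117 with 1 sublibrary left out, -0.0068 at the finer clustering, 0.0024 with cells thinned to 2000 UMIs, 0.0296 in Xist-only cells, -0.23 in Y-only cells and 0.27 as mean UMIs per cell. The ciliated-like ratio, -0.58, was -1.22 to -0.24 with 1 sublibrary left out, -0.0585 without the doublet and mitochondrial filters and -2.10 in Y-only cells. The immune-like ratio, 0.14, was 0.0059 to 0.24 with 1 sublibrary left out, 0.0772 without those filters and 0.0552 with thinned cells. It was 0.37 in Xist-only cells and -1.01 in Y-only cells, which numbered only 14 in Cre_Pos and 138 in Cre_Neg. As mean UMIs per cell it was -0.15. Without alveolar macrophages, an alternative added after seeing the data, it was -0.37. Where a value moved by the choice of cells, the cause was not tested.

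With cells thinned to 2000 UMIs, the shares of cells with a UMI of any of the 10 genes among AT2-like cells were 83.0% in Cre_Pos and 85.1% in Cre_Neg, and in the other classes 22.04% in Cre_Pos and 36.1% in Cre_Neg endothelial-like cells, 6.67% in Cre_Pos and 7.67% in Cre_Neg ciliated-like cells, and 46.1% in Cre_Pos and 46.3% in Cre_Neg immune-like cells. The ciliated-like H2-Aa ratio turned to 1.91 when thinned, on 3 UMIs in Cre_Pos and 8 in Cre_Neg. Of the other values for single genes, 106 moved beyond their spread and 420 did not. No paired analysis was possible because each genotype is 1 pool and no result comes from a test. With 120 ciliated-like cells in Cre_Pos, depth limits every ciliated value for single genes.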
